A study of Homo sapiens with 12 samples.

Results

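The genes described here are 10 that encode contents of the primary (azurophil) granule of myeloid cells or mark the progenitors that make it: MPO, ELANE, PRTN3, AZU1, CTSG, RNASE2, CST7, SERPINB1, SRGN and MS4A3. They were chosen by symbol, taking for each symbol the Ensembl identifier with the most reads, and are 10 of the 57905 identifiers in the count table. All 10 had reads in every library and passed the filter on low counts. Expression was measured by QuantSeq, which sequences tags from the 3′ end of polyadenylated RNA, in OCI-AML3. This is a human cell line established from acute myeloid leukaemia.

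The study holds 4 groups of 3 libraries each. The sgALAS1 and sgSCR cells were transduced with a guide RNA against ALAS1 or a scrambled guide, and both received doxycycline for 7 days to switch the guide on. The SA cells were exposed to SA at 500 µM for 6 days, and the Vehicle cells to vehicle for the same time. The labels do not expand SA, give no dose of doxycycline and do not say whether the SA and Vehicle cells received it or carried a guide. They name no clone and do not say that replicates are separate cultures, so the p-values speak for the spread among libraries, and that spread may be technical. ALAS1 encodes the first enzyme of haem synthesis, and the study asks what follows when that pathway is blocked by a guide or by SA.

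Primary granules are filled at the promyelocyte stage, when their genes are transcribed strongly for a short time and are then shut off as the cell matures. Their cargo includes myeloperoxidase, which carries haem at its active site, a family of neutrophil serine proteases that are stored active and bound to the proteoglycan serglycin, and ribonucleases. Cytosolic and endosomal inhibitors such as SERPINB1 and cystatin F limit the proteases. C/EBP factors, PU.1, RUNX1 and MYB are known to act on the promoters of these genes in myeloid progenitors.

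The promoters below are shown because PRTN3 and CTSG are the members whose transcripts fell in SA cells, PRTN3 fell in sgALAS1 cells too, and AZU1 is the gene next to PRTN3. Each sequence is the 250 bases before the annotated start, read 5′ to 3′ on the strand of the gene, from RefSeq on GRCh38.p14, whose promoter table held 6 of the 10 members (PRTN3, AZU1, CTSG, RNASE2, SERPINB1 and MS4A3). Promoters of MPO, ELANE, CST7 and SRGN are not shown. Capitals mark letters that match 1 of 5 motifs searched on both strands. The PRTN3 promoter lies at chr19:840749-840998 on the plus strand, that of AZU1 at chr19:827587-827836 on the plus strand and that of CTSG at chr14:24576251-24576500 on the minus strand.
PRTN3: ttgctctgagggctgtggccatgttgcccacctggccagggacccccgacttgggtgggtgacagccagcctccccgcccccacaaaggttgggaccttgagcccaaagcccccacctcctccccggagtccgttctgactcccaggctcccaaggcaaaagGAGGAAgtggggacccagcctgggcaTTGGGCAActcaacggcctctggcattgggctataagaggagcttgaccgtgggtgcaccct
AZU1: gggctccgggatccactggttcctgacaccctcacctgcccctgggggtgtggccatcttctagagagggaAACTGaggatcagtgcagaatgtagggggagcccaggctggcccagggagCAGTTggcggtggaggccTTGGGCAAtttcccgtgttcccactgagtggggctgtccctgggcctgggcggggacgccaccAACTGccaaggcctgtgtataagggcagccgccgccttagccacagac
CTSG: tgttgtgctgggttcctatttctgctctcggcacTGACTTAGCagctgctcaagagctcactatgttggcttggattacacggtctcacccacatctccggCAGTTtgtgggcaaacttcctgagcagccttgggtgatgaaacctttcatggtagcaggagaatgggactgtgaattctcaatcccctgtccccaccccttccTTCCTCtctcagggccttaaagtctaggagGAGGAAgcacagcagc
The motifs were a C/EBP type (TTNNGNAA), a PU.1 type (GAGGAA), a RUNX type (TGTGGT), a MYB type (AACTG) and the element type bound by NRF2 and BACH1 (TGACNNNGC), and no matches overlap in the sequences shown. PRTN3 and AZU1 hold the same C/EBP-type letters, TTGGGCAA, starting 62 bases before the start of PRTN3 and 111 bases before that of AZU1. PRTN3 also holds GAGGAA at 88 bases before its start, and CTSG has PU.1-type matches at 46 and 16 bases, a MYB-type match at 149 and TGACTTAGC at 216. Among the 6 members the C/EBP type was present in 4, against 33.2% of all 35116 promoters of that length, and the MYB type in 5, against 34.1%. The PU.1 type was present in 2 members (23.6% of all promoters), the NRF2 and BACH1 type in 2 (10.9%) and the RUNX type in 0 (10.98%). A match describes letters in this window and is not evidence of binding.

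Library totals lay between 4658513 and 7339843 reads. ALAS1 itself was lower in sgALAS1 than in sgSCR cells, at 26.2 to 27.3 against 37.4 to 41.9 CPM (counts scaled to a common library size), which is -0.56 on the log2 scale (SE 0.14 and adjusted p = 0.00777 by edgeR's quasi-likelihood test, and 0.0503 without sgSCR replicate 2). In SA cells ALAS1 was at 102 to 111 CPM against 31.1 to 37.5 CPM in Vehicle cells, which is 1.60 on the log2 scale (SE 0.14 and adjusted p = 1.36e-09 by the same test). These 3′ tags do not show whether the guide edited the gene. Of 11 genes of myeloid identity, 10 had reads in all 12 libraries and KIT had 0 reads. Of 13 erythroid and megakaryocyte genes, 2 had reads in all 12 libraries and 5 had 0 reads, HBB, HBA1 and HBA2 among them. Of 15 eosinophil, basophil and mast cell genes, 3 had reads in all 12 libraries and 6 had 0 reads, among them EPX, PRG3 and CLC. RNASE3, in that last list, had 3740 reads over all libraries.

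Of the 10 genes, 6 passed the test in neither arm. In SA cells PRTN3 and CTSG fell relative to Vehicle, 1.54-fold and 1.72-fold. In sgALAS1 cells PRTN3 fell 2.20-fold and CST7 fell 1.76-fold relative to sgSCR, and RNASE2 rose 1.31-fold. Of these sgALAS1 calls, PRTN3 kept its own in all 6 fits that left out 1 library, CST7 in 3 and RNASE2 in 1. All values below are CPM scaled by the trimmed mean of M-values (TMM), and tests are edgeR's quasi-likelihood test with p-values adjusted over the 13832 identifiers tested and a threshold of 0.05. In SA against Vehicle, 0 of 10 members were called higher and 2 lower, beside 11.1% of all tested genes called in either direction (4.83% higher and 6.24% lower). In sgALAS1 against sgSCR, 1 member was called higher and 2 lower, beside 11.7% of all tested genes (4.88% higher and 6.85% lower). The median log2 fold change of the members was -0.20 in SA against Vehicle, where that of all tested genes was -0.01, and 0.04 in sgALAS1 against sgSCR, where that of all tested genes was 0.00.

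**Figure D1:**
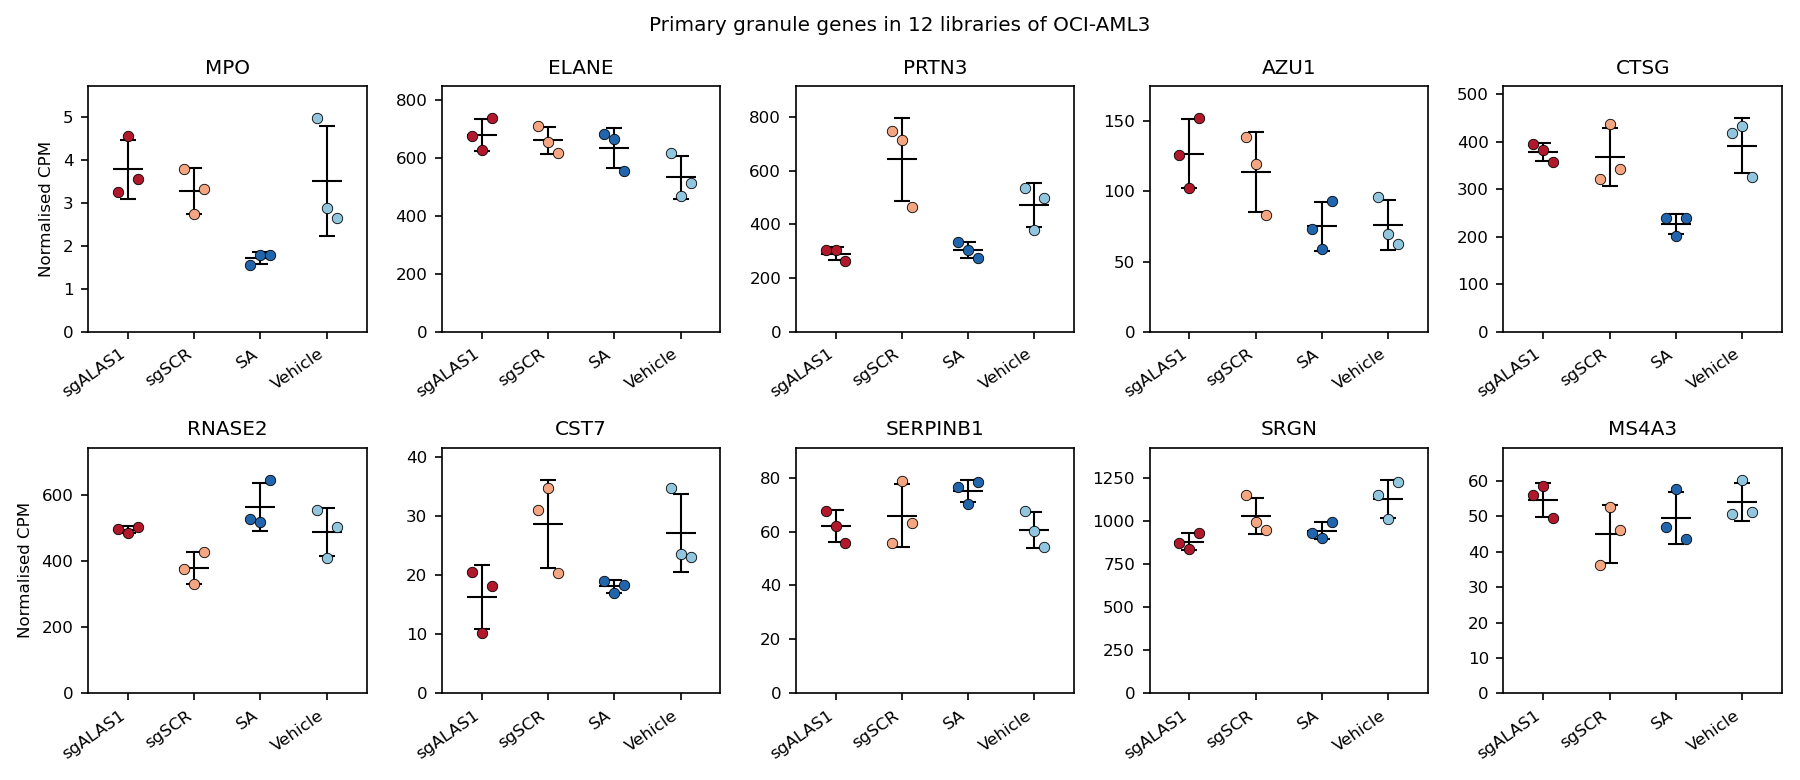
Expression of the 10 genes in each of the 12 libraries (vertical axis, TMM-scaled CPM from 0; points are libraries, bars the mean and SD of 3). PRTN3 is lower in all sgALAS1 than in all sgSCR libraries and in all SA than in all Vehicle libraries, and CTSG is lower in all SA than in all Vehicle libraries.

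MPO, the peroxidase of the granule, had few reads in these cells, between 8 and 36 per library and 214 in all. It stood at 1.55, 1.79 and 1.78 CPM in SA libraries, against 4.97, 2.88 and 2.65 CPM in Vehicle libraries. The SA libraries were all below the Vehicle libraries. The log2 fold change was -1.03 (SE 0.51) and did not pass the test (adjusted p = 0.21). In sgALAS1 libraries MPO had 3.24, 4.54 and 3.55 CPM, against 3.78, 2.73 and 3.31 CPM in sgSCR libraries, and these groups overlapped (log2 fold change 0.21, SE 0.48, adjusted p = 0.852). At this depth the standard errors leave room for changes of either sign in sgALAS1 cells.

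The serine proteases did not move together. PRTN3 encodes proteinase 3, the autoantigen of granulomatosis with polyangiitis. It had 336, 305 and 277 CPM in SA libraries, against 537, 380.1 and 497 CPM in Vehicle libraries. Every SA library lay below every Vehicle library, and the log2 fold change was -0.63 (SE 0.14, adjusted p = 0.00378). PRTN3 had 304, 306 and 265 CPM in sgALAS1 libraries, against 747, 714 and 465 CPM in sgSCR libraries. The groups did not overlap, although sgSCR replicate 3 was well below the other sgSCR libraries. The log2 fold change was -1.14 (SE 0.14, adjusted p = 9.99e-07). Leaving out any of the 6 libraries in turn kept both calls, with a log2 fold change of -0.76 to -0.52 for SA and -1.32 to -1.02 for sgALAS1. In bulk RNA, fewer cells that express a gene and less of its RNA per cell cannot be told apart.

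CTSG encodes cathepsin G, a granule protease with chymotrypsin-like activity. It had 239.6, 202 and 239 CPM in SA libraries, against 417, 432 and 325 CPM in Vehicle libraries. All SA libraries were lower, and the log2 fold change was -0.79 (SE 0.13, adjusted p = 6.83e-05). CTSG had 394, 382 and 357 CPM in sgALAS1 libraries, against 322, 437 and 342 CPM in sgSCR libraries. These ranges overlapped, and the log2 fold change was 0.04 (SE 0.13, adjusted p = 0.887). The SA call was kept without any of the 6 libraries in turn (-0.90 to -0.71).

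ELANE encodes neutrophil elastase, the gene mutated in many cases of severe congenital neutropenia. It had 683, 665 and 557 CPM in SA libraries, against 617, 470.3 and 514 CPM in Vehicle libraries. The groups overlapped, and the log2 fold change of 0.25 (SE 0.12) was not called (adjusted p = 0.175), except without Vehicle replicate 1, where it was 0.37 (adjusted p = 0.0351). In sgALAS1 libraries ELANE had 677, 628 and 739 CPM, against 709.9, 657 and 617 CPM in sgSCR libraries, again overlapping (log2 fold change 0.04, SE 0.12, adjusted p = 0.874).

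AZU1 encodes azurocidin, a family member that has lost protease activity and acts as an antimicrobial and chemotactic protein. It had 73.2, 58.9 and 93.2 CPM in SA libraries, against 96.0, 69.9 and 62.5 CPM in Vehicle libraries. The groups overlapped (log2 fold change -0.02, SE 0.18, adjusted p = 0.968). It had 126, 103 and 152 CPM in sgALAS1 libraries, against 139, 119.6 and 83.0 CPM in sgSCR libraries, which also overlapped (log2 fold change 0.16, SE 0.18, adjusted p = 0.651).

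**Figure D2:**
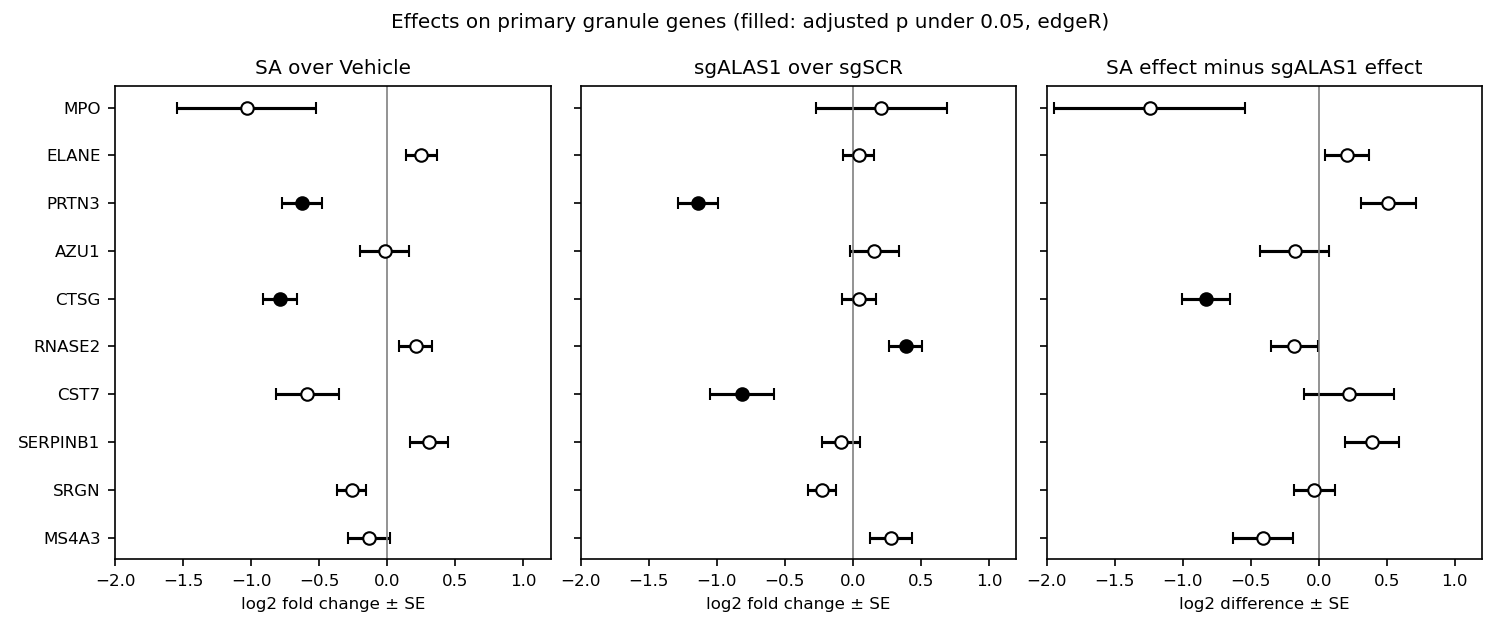
Log2 fold changes of the 10 genes (horizontal axis; points are estimates, filled where the test was passed, and bars ± 1 SE) for SA over Vehicle, sgALAS1 over sgSCR and the difference of these effects. PRTN3 is at -0.63 and -1.14 in the 2 arms, while CTSG is at -0.79 in the SA arm and 0.04 in the sgALAS1 arm.

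AZU1, PRTN3 and ELANE stand next to each other on chromosome 19, which allowed PRTN3 to be set against its neighbours within each library. Reads of PRTN3 per read of ELANE were 0.491, 0.459 and 0.497 in SA libraries, against 0.871, 0.808 and 0.968 in Vehicle libraries. They were 0.450, 0.487 and 0.358 in sgALAS1 libraries, against 1.05, 1.09 and 0.753 in sgSCR libraries. In both arms all 3 ratios lay below all those of the controls. The exact two-sided permutation test gave p = 0.1 in each arm, the smallest that 3 against 3 libraries allow. Reads of AZU1 per read of ELANE averaged 0.121 ± 0.041 in SA and 0.142 ± 0.018 in Vehicle libraries, and 0.185 ± 0.021 in sgALAS1 and 0.171 ± 0.032 in sgSCR libraries (SD, n = 3 each, exact permutation p = 0.5 and 0.6). Such ratios follow each gene's own tag yield and are not ratios of transcript number.

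The makeup of the reads from ELANE, PRTN3, AZU1 and CTSG differed accordingly. PRTN3 supplied 24.6 ± 0.8% of them in SA and 31.97 ± 3.7% in Vehicle libraries, and 19.8 ± 2.1% in sgALAS1 and 35.6 ± 4.2% in sgSCR libraries (SD, n = 3 each). CTSG supplied 18.3 ± 2.1% in SA and 26.7 ± 4.6% in Vehicle libraries, and 25.6 ± 1.8% in sgALAS1 and 20.7 ± 3.4% in sgSCR libraries. ELANE supplied 51.0 ± 3.1% in SA and 36.2 ± 1.2% in Vehicle libraries, and 46.1 ± 2.4% in sgALAS1 and 37.4 ± 3.4% in sgSCR libraries. A share rises when another member of the sum falls, so the ELANE shares do not show a change of ELANE itself. CTSG per ELANE read was 0.351, 0.304 and 0.429 in SA libraries, against 0.676, 0.918 and 0.632 in Vehicle libraries, without overlap. It was 0.583, 0.608 and 0.483 in sgALAS1 libraries, within the 0.454, 0.665 and 0.554 of sgSCR libraries.

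**Figure D3:**
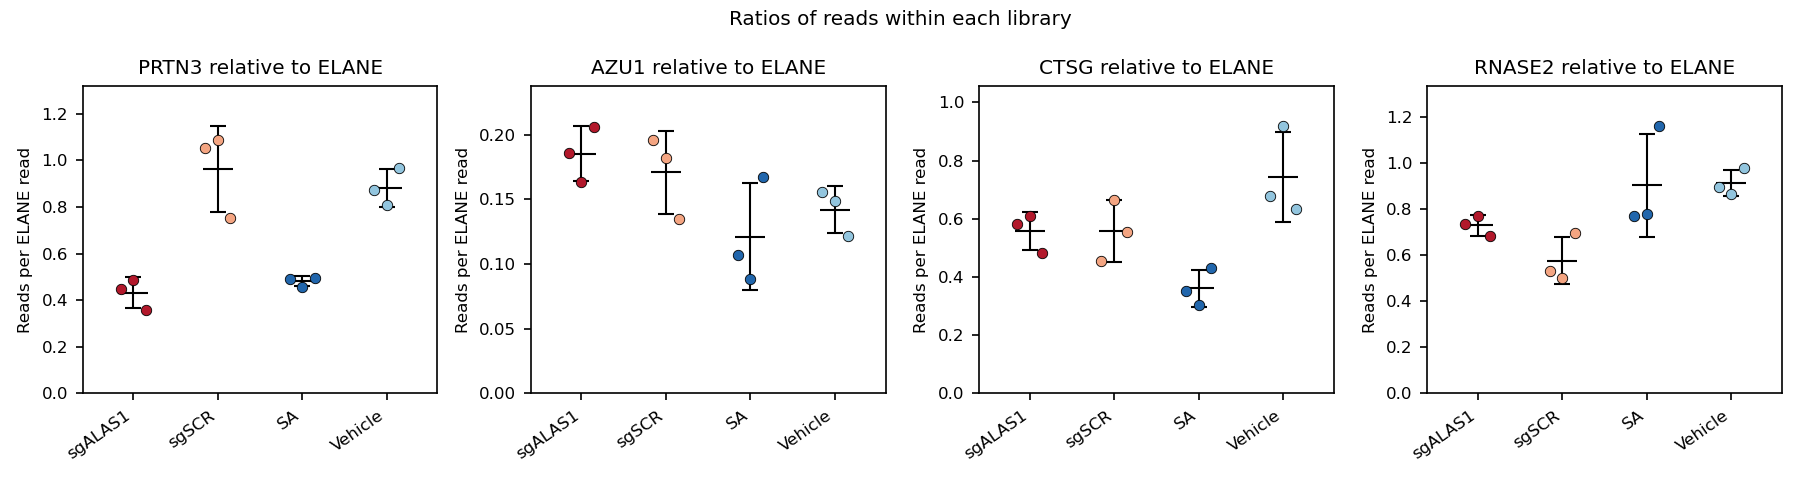
Reads of PRTN3, AZU1, CTSG and RNASE2 per read of ELANE in each library (vertical axis from 0; points are libraries, bars the mean and SD of 3). The PRTN3 ratio is 0.358 to 0.497 across sgALAS1 and SA libraries, and 0.753 to 1.09 across sgSCR and Vehicle libraries.

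The stretch of chromosome 19 around these genes holds, in order, PTBP1, PLPPR3, AZU1, PRTN3, ELANE, CFD, MED16 and R3HDM4. CFD encodes complement factor D, also a serine protease of myeloid granules. It rose in SA cells (log2 fold change 0.63, SE 0.12, adjusted p = 9.02e-04 against Vehicle) and was at 0.36 in sgALAS1 against sgSCR (SE 0.12, adjusted p = 0.0556). PTBP1, PLPPR3 and MED16 were not called in either arm, with log2 fold changes of 0.03, -0.04 and -0.07 in SA cells and -0.23, -0.23 and -0.06 in sgALAS1 cells. R3HDM4 was at 0.51 in SA cells (adjusted p = 0.0596, and called without Vehicle replicate 1 or SA replicate 2) and at 0.15 in sgALAS1 cells (adjusted p = 0.681). Over all members, 48 protein-coding neighbours (the 3 nearest on each side) were listed and 27 tested. Of these 2 were called higher and 2 lower in SA cells, where 11.1% of all tested genes were called. In sgALAS1 cells 1 was called higher and 1 lower, where that share was 11.7%. The higher ones were CFD and SERPINB9 in SA cells and SERPINB9 in sgALAS1 cells. ACSS1, a mitochondrial acetyl-CoA synthetase gene near CST7, was lower in both (-1.51 and -2.78 on the log2 scale), and NQO2, near SERPINB1, was lower in SA cells (-1.59), a call lost without 5 of the 6 libraries.

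**Figure D4:**
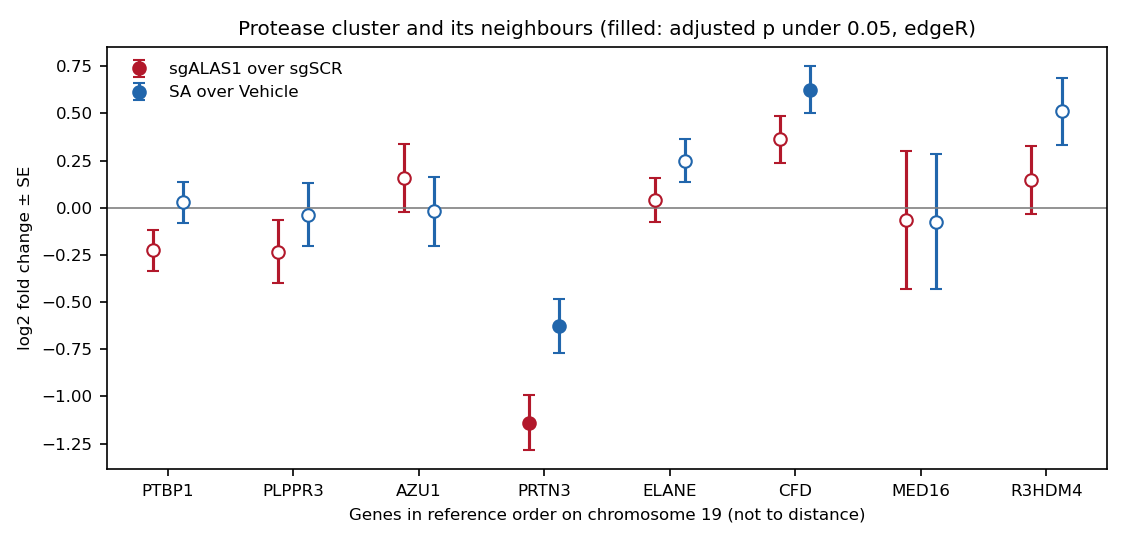
Log2 fold changes of the genes around AZU1, PRTN3 and ELANE in their order on chromosome 19 (horizontal axis, gene order and not distance; vertical axis, log2 fold change with bars of ± 1 SE; filled points passed the test). PRTN3 is the called lower gene in both arms, between AZU1 and ELANE, which were not called.

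RNASE2 encodes eosinophil-derived neurotoxin, a ribonuclease that neutrophil and monocyte precursors also make. It had 497, 484 and 504 CPM in sgALAS1 libraries, against 377, 330.3 and 428 CPM in sgSCR libraries. All sgALAS1 libraries were above all sgSCR libraries, and the log2 fold change was 0.39 (SE 0.12, adjusted p = 0.0359). The call was lost without sgSCR replicate 1 or 2 or any of the sgALAS1 libraries, with adjusted p up to 0.183. RNASE2 had 526, 517 and 646 CPM in SA libraries, against 553, 408 and 502 CPM in Vehicle libraries, which overlapped (log2 fold change 0.21, SE 0.12, adjusted p = 0.303). Its close relative RNASE3, the eosinophil cationic protein, had log2 fold changes of 0.31 in SA and 0.35 in sgALAS1 cells and was not called. The sources used here do not give how reads that fit both ribonucleases were counted, so the split between them is uncertain.

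CST7 encodes cystatin F, an inhibitor of the cathepsins that activate granule proteases. It had 20.5, 10.2 and 18.2 CPM in sgALAS1 libraries, against 31.1, 34.7 and 20.3 CPM in sgSCR libraries. The groups touched, since sgALAS1 replicate 1 was just above sgSCR replicate 3. The log2 fold change of -0.81 (SE 0.24) passed the test (adjusted p = 0.021) but not without sgSCR replicate 1, sgSCR replicate 2 or sgALAS1 replicate 2 (adjusted p up to 0.149). CST7 had 19.04, 16.9 and 18.3 CPM in SA libraries, against 34.8, 23.5 and 23.0 CPM in Vehicle libraries. All SA libraries were lower, but the log2 fold change of -0.59 (SE 0.23) did not pass (adjusted p = 0.105).

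SERPINB1 encodes the cytosolic inhibitor of elastase, proteinase 3 and cathepsin G. It had 76.5, 70.2 and 78.3 CPM in SA libraries, against 67.4, 60.1 and 54.3 CPM in Vehicle libraries. All SA libraries were higher, with a log2 fold change of 0.31 (SE 0.14) that did not pass (adjusted p = 0.173). In sgALAS1 libraries it had 67.8, 62.2 and 55.9 CPM, against 55.8, 78.6 and 63.0 CPM in sgSCR libraries, which overlapped (log2 fold change -0.09, SE 0.14, adjusted p = 0.778). Of 12 other inhibitors listed 8 were tested, and 3 rose in SA cells and 2 in sgALAS1 cells, with 0 lower. Over all tested genes 4.83% were called higher in SA cells and 4.88% in sgALAS1 cells. SLPI, which inhibits elastase and cathepsin G, had log2 fold changes of 1.12 in SA cells (adjusted p = 0.00243) and 1.30 in sgALAS1 cells (adjusted p = 6.59e-04). SERPINB9, the inhibitor of granzyme B and the gene next to SERPINB1, had log2 fold changes of 1.10 in SA cells (adjusted p = 0.00547, and 0.069 without SA replicate 3) and 1.67 in sgALAS1 cells (adjusted p = 8.37e-05). CST3, encoding cystatin C, rose in SA cells by 0.65 on the log2 scale (adjusted p = 0.00164).

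SRGN encodes serglycin, the proteoglycan core that retains proteases in the granule, and supplied 28.9 to 37.7% of the reads of the 10 genes. It had 932, 900.5 and 996 CPM in SA libraries, against 1152, 1009.5 and 1227 CPM in Vehicle libraries. It had 871, 839.9 and 932 CPM in sgALAS1 libraries, against 1149.6, 995 and 949 CPM in sgSCR libraries. In both arms the groups did not overlap, but the log2 fold changes of -0.26 (SE 0.11, adjusted p = 0.115) in SA cells and -0.23 (SE 0.11, adjusted p = 0.177) in sgALAS1 cells did not pass the test.

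MS4A3 encodes a membrane protein that marks granulocyte and monocyte progenitors. It had 47.0, 57.7 and 43.6 CPM in SA libraries, against 50.6, 60.4 and 51.3 CPM in Vehicle libraries. It had 56.0, 58.5 and 49.4 CPM in sgALAS1 libraries, against 36.3, 52.6 and 46.3 CPM in sgSCR libraries. Both pairs of groups overlapped, with log2 fold changes of -0.13 (SE 0.15, adjusted p = 0.663) in SA cells and 0.28 (SE 0.16, adjusted p = 0.278) in sgALAS1 cells.

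Without regard to the test, 1 member was higher and 5 were lower with no overlap in SA against Vehicle, beside 27.4% of all tested genes without overlap (12.6% higher and 14.8% lower). In sgALAS1 against sgSCR, 1 was higher and 2 were lower, beside 29.1% (13.6% higher and 15.5% lower). At an unadjusted p under 0.05 there were 6 members in SA against Vehicle, beside 24.4% of all tested genes, and 4 in sgALAS1 against sgSCR, beside 24.8%. The reads of all 10 genes together made up 0.282 to 0.288% of each SA library, against 0.305 to 0.349% of each Vehicle library. They made up 0.289 to 0.298% of each sgALAS1 library, against 0.304 to 0.353% of each sgSCR library. On the TMM scale used for all other values the sums overlapped, at 2795 to 2949.6 CPM in SA and 2916 to 3529.7 CPM in Vehicle libraries (exact two-sided permutation p = 0.3, n = 3 each). They also overlapped at 2878 to 3075 CPM in sgALAS1 and 3017 to 3572 CPM in sgSCR libraries (exact p = 0.2, n = 3 each).

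The difference between the effects, SA over Vehicle less sgALAS1 over sgSCR, was tested in the same model. CTSG was the 1 member called, beside 1.19% of all tested genes (0.759% higher and 0.427% lower), with a difference of -0.83 (SE 0.18, adjusted p = 0.0101), and the call was lost without sgSCR replicate 1 (adjusted p = 0.0531). For PRTN3, which fell in both arms, the difference of 0.51 (SE 0.20) did not pass (adjusted p = 0.279). At an unadjusted p under 0.05 there were 2 members, beside 11.9% of all tested genes. For the other 8 members adjusted p lay between 0.447 and 0.957.

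The control groups differ in days and vehicle, and the labels give a guide and doxycycline for sgSCR only. Altogether 0 of the 10 genes were called between sgSCR and Vehicle in edgeR's quasi-likelihood test or in DESeq2, beside 1.43% of all tested genes in edgeR. The shares over all genes were 0.47% higher and 0.962% lower. ELANE was the 1 member without overlap, higher in sgSCR, beside 17.1% of all tested genes (8.42% higher and 8.73% lower). At an unadjusted p under 0.05, beside 12.6% of all tested genes, there were 4 members, which were ELANE at a log2 fold change of 0.31, PRTN3 at 0.44, AZU1 at 0.57 and RNASE2 at -0.36. With no filter on low counts, without Vehicle replicate 1 or without sgSCR replicate 3, PRTN3 and AZU1 were called higher in sgSCR than in Vehicle. Each treated group was also set against the other control, a comparison chosen after the values were seen, in which the agent, the days and any guide or doxycycline cannot be told apart. In SA against sgSCR 1 member was called higher and 3 lower, beside 13.6% of all tested genes (5.91% higher and 7.65% lower). In sgALAS1 against Vehicle 2 were called higher and 3 lower, beside 14.9% (6.49% higher and 8.4% lower). PRTN3 was lower against either control, at -1.07 for SA against sgSCR and -0.69 for sgALAS1 against Vehicle, and CTSG was at -0.69 for SA against sgSCR and -0.05 for sgALAS1 against Vehicle. RNASE2 in sgALAS1 cells stood at 0.02 relative to Vehicle (adjusted p = 0.939) and lost its call, whereas in SA cells it was called higher than in sgSCR cells (0.57, adjusted p = 0.0018). AZU1 was called lower in SA than in sgSCR cells (-0.59, adjusted p = 0.0273) and higher in sgALAS1 than in Vehicle cells (0.73, adjusted p = 0.00485). Against Vehicle, sgALAS1 cells also had calls for ELANE (0.35), CST7 (-0.74) and SRGN (-0.36).

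Among other genes of the primary granule, a further serine protease was lower. PRSS57 encodes neutrophil serine protease 4 and also lies on chromosome 19. It had 177, 181 and 202 reads in SA libraries, against 906, 391 and 499 reads in Vehicle libraries. It had 0, 2 and 0 reads in sgALAS1 libraries, against 734, 685 and 466 reads in sgSCR libraries. All SA libraries were below all Vehicle libraries, and PRSS57 was at or near 0 in every sgALAS1 library. The log2 fold change in SA cells was -1.44 (SE 0.21, adjusted p = 1.1e-05). In sgALAS1 cells the ratio of scaled reads was 0.00111 of that in sgSCR cells, with a 95% exact interval of 0.000135 to 0.00402 that covers counting error only (adjusted p = 6.98e-16). The fall in sgALAS1 cells was larger than in SA cells by the test of the difference (adjusted p = 5.54e-11). Such absence was not limited to granule genes. CD3D, a lymphoid marker, also had 0 CPM in every sgALAS1 library, against 4.18 to 5.62 CPM in sgSCR libraries.

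Of 26 other cargo and processing genes listed 21 were tested. In SA cells 7 were called higher and 1 lower, beside 11.1% of all tested genes. In sgALAS1 cells 4 were higher and 1 lower, beside 11.7%. The lower gene was PRSS57 in both. The 7 higher calls in SA cells became 3 without Vehicle replicate 2 or SA replicate 1, and 4 without Vehicle replicate 3. LYZ, encoding lysozyme, averaged 1455 ± 140 CPM in SA and 564 ± 75 CPM in Vehicle libraries, and 1029.7 ± 72 CPM in sgALAS1 and 341 ± 39 CPM in sgSCR libraries (SD, n = 3 each). The groups did not overlap in either arm. The log2 fold changes of LYZ were 1.37 (adjusted p = 1.36e-09) and 1.60 (adjusted p = 1.90e-11). The controls also differed, at 296 to 370 CPM in sgSCR and 501 to 646 CPM in Vehicle libraries. With the control groups exchanged LYZ was at 2.09 for SA against sgSCR and 0.87 for sgALAS1 against Vehicle (adjusted p = 1.65e-13 and 2.08e-06). FUCA1, a lysosomal fucosidase, rose by 2.18 on the log2 scale in SA cells (adjusted p = 2.84e-07) and was at 0.71 in sgALAS1 cells (adjusted p = 0.0593). CD63, a membrane protein of the granule, rose by 0.60 in sgALAS1 cells (adjusted p = 4.78e-04) and by 0.35 in SA cells (adjusted p = 0.0412), the SA call being lost without 5 of the 6 libraries. PLAC8 had 824 to 879 CPM in sgALAS1 and 404 to 540 CPM in sgSCR libraries. In SA and Vehicle libraries PLAC8 had 635 to 704 and 469 to 553 CPM. The list medians were 0.21 in SA and 0.24 in sgALAS1 cells. DEFA1, DEFA3, DEFA4 and IGLL1 had 0 reads, and BPI had 36 reads in all, too few to be tested.

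Of 16 regulators listed 15 were tested, with 1 higher and 4 lower in SA cells and 2 higher and 4 lower in sgALAS1 cells. The shares over all tested genes were 11.1% and 11.7%. The 2 higher calls in sgALAS1 cells became 1 without sgSCR replicate 2 or 3 or sgALAS1 replicate 1 or 3. MYC averaged 51.2 ± 9.2 CPM in SA and 109 ± 17 CPM in Vehicle libraries, and 51.2 ± 7.2 CPM in sgALAS1 and 97.6 ± 11.4 CPM in sgSCR libraries (SD, n = 3 each). The MYC values did not overlap in either arm. Their log2 fold changes were -1.09 (adjusted p = 8.66e-06) and -0.92 (adjusted p = 6.75e-05). LMO4, a LIM-domain transcriptional cofactor, fell by 1.71 in SA cells (adjusted p = 1.36e-09) and by 1.86 in sgALAS1 cells (adjusted p = 9.82e-11) on the log2 scale. SPI1, encoding PU.1, rose by 0.96 in SA cells (adjusted p = 1.33e-04) and was at 0.35 in sgALAS1 cells (adjusted p = 0.174). Without regard to the test, IKZF1 was lower with no overlap in both arms. It had 100 to 116 CPM in SA and 143 to 149 CPM in Vehicle libraries. In sgALAS1 and sgSCR libraries IKZF1 had 86.4 to 93.2 and 125 to 137 CPM. Also without regard to the test, RUNX1 had 25.1 to 33.6 CPM in sgALAS1 and 40.6 to 43.9 CPM in sgSCR libraries. In SA and Vehicle libraries RUNX1 had 41.7 to 47.2 and 51.4 to 55.3 CPM. MYB had 122 to 153 CPM in SA and 175 to 200 CPM in Vehicle libraries, and overlapped in the sgALAS1 arm. CEBPA had 413 to 557 CPM in sgALAS1 and 336 to 403 CPM in sgSCR libraries, and overlapped in the SA arm. IRF8, a factor of monocyte development, rose by 0.80 in sgALAS1 cells (adjusted p = 6.59e-04) and was at -0.41 in SA cells (adjusted p = 0.0972), and this difference passed its test (-1.21, adjusted p = 0.00225).

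In the lists of later-stage genes most calls were higher. Over all tested genes 11.1% were called in SA cells and 11.7% in sgALAS1 cells. Of 20 secondary and tertiary granule genes 8 were tested, with 4 higher and 0 lower in SA cells and 3 higher and 1 lower in sgALAS1 cells. The sgALAS1 counts became 2 higher and 0 lower without sgSCR replicate 2 or sgALAS1 replicate 1 or 3, and the lower call was also lost without sgSCR replicate 1 or 3. CYBB, the haem-binding subunit of the phagocyte oxidase, rose by 0.77 in SA cells (adjusted p = 1.22e-04) and by 0.99 in sgALAS1 cells (adjusted p = 3.12e-06), while LTF, LCN2, PGLYRP1 and CD177 had 0 reads. CYBB was itself lower in sgSCR than in Vehicle cells (-0.89, adjusted p = 2.05e-04), and sgALAS1 cells, at 117 to 157 CPM against 122 to 123 CPM in Vehicle cells, were not called against Vehicle (adjusted p = 0.68). With the control groups exchanged, 5 of the 8 were called higher and 0 lower for SA against sgSCR, beside 13.6% of all tested genes. For sgALAS1 against Vehicle 2 were called higher and 1 lower, beside 14.9%. TCN1 (1.95 and 1.71) and MMP9 (2.05 and 2.16) were called higher in both. CHI3L1 was the lower gene (-2.70), and had 0.222 to 0.909 CPM in sgALAS1 and 1.99 to 2.15 CPM in sgSCR libraries. Of 20 monocyte and granulocyte maturation genes 18 were tested, with 9 higher and 2 lower in SA cells and 11 higher and 2 lower in sgALAS1 cells. S100A9 had log2 fold changes of 3.85 in SA and 2.52 in sgALAS1 cells, and CD14 of 1.67 and 1.73, all with adjusted p of 1.38e-07 or less. TYROBP and LST1 went the other way. TYROBP had 29.8 to 38.1 CPM in SA and 61.8 to 76.1 CPM in Vehicle libraries. It had 17.1 to 21.5 CPM in sgALAS1 and 45.8 to 52.9 CPM in sgSCR libraries. LST1 had 105 to 116 CPM in SA and 140 to 157 CPM in Vehicle libraries. It had 46.0 to 51.6 CPM in sgALAS1 and 64.1 to 83.5 CPM in sgSCR libraries. With the control groups exchanged, LST1 was called higher in SA than in sgSCR cells (0.58, adjusted p = 0.00185 in edgeR). It was called lower in sgALAS1 than in Vehicle cells (-1.58). TYROBP was called lower in both such comparisons (-0.52 and -1.81). The summed CPM of this list was 1796 to 1925 in SA and 1083 to 1198 in Vehicle libraries, and 1413 to 1496 in sgALAS1 and 736 to 769.9 in sgSCR libraries. Between sgSCR and Vehicle 0 were called higher and 4 lower, beside 1.43% of all tested genes. Against Vehicle sgALAS1 cells had 7 higher and 2 lower, beside 14.9%. The 2 lower calls in SA cells became 1 without Vehicle replicate 1 or 2 or SA replicate 1 or 3. This list moved in the same libraries as PRTN3, and its part in the PRTN3 values was not tested.

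**Figure D5:**
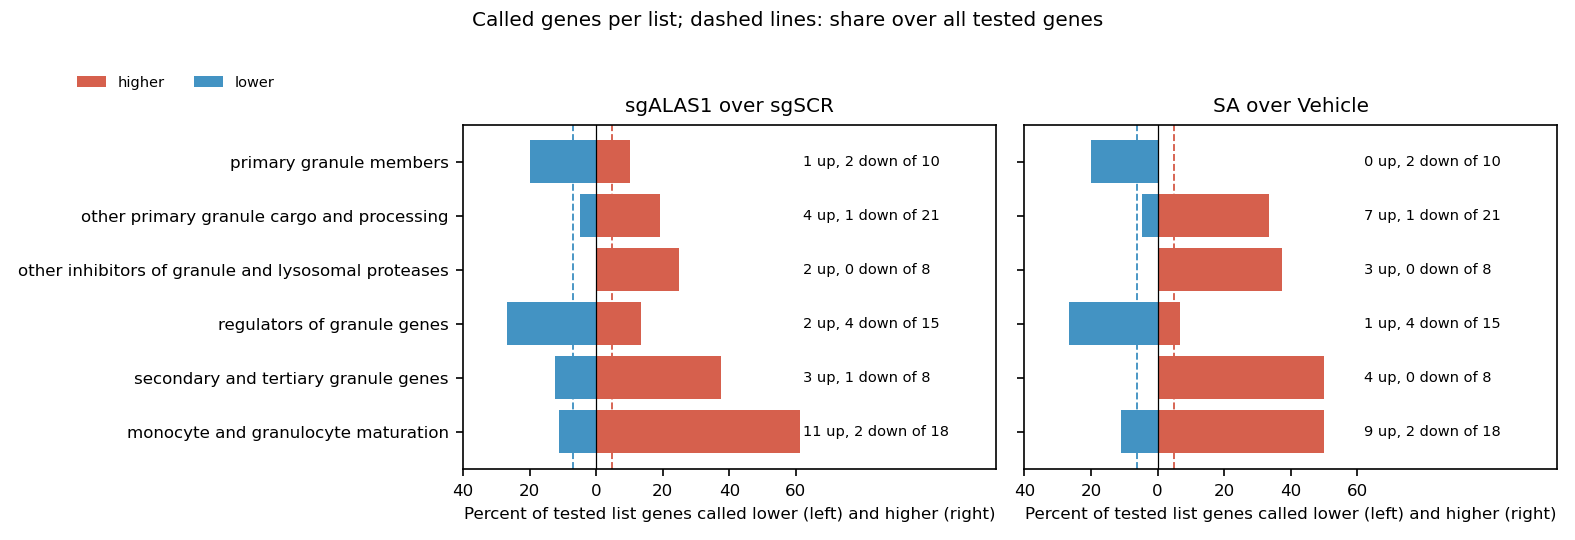
Percent of the tested genes of each list called lower (left of 0) and higher (right of 0) for sgALAS1 over sgSCR and SA over Vehicle, with dashed lines at the share over all tested genes. The 10 primary granule genes have 1 higher and 2 lower in sgALAS1 cells and 0 higher and 2 lower in SA cells, and the maturation list has 11 higher and 2 lower and 9 higher and 2 lower.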

How the data were processed

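Gene expression was measured in 12 QuantSeq libraries of OCI-AML3 cells, 3 in each of 4 groups given by the labels. Per the submitters' processing notes, the authors used bcl2fastq 2.17.1.14, cutadapt 1.14, HISAT2 2.0.4, hg19, featureCounts of Subread 2.0.0, edgeR 3.34.0 and limma 3.48.3. The sources used here do not name the annotation release, the strand setting or the treatment of multi-mapping reads. The authors' deposited values are raw counts per Ensembl identifier. Names came from a current gene table (51996 identifiers) and GENCODE (342), and 5567 had none.

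The 10 members and the other gene lists were chosen with earlier results of these data known. Genes outside the members are named from those with the smallest p in each arm, up to 4 per list, and not all such genes are named. Named too are genes with reads in all libraries from the marker lists of other lineages, neighbours of members that were called, and the 5 genes most like MPO and the chromosome 19 sum. The myeloid and maturation marker lists are given by counts and few names. PTBP1, PLPPR3, MED16, R3HDM4, CD3D, TYROBP, LST1, RUNX1, MYB, CEBPA, IKZF1, PLAC8, TCN1, MMP9, CHI3L1 and the genes at 0 or with few reads were added after their values were seen. Calculations used R 4.3.3 with edgeR 4.0.16. Identifiers were filtered with filterByExpr by group, which kept 13832 (423 without a name), normalised by TMM and fitted in 1 quasi-likelihood model of all 12 libraries, with two-sided tests and Benjamini-Hochberg adjustment over all 13832 at 0.05. The SE is the size of the log2 fold change divided by the square root of F, and the biological coefficient of variation was 16.4%. DESeq2 1.42.0, other normalisations, no filter, a replicate block and leaving out each library were alternatives. The scripts were tested on simulated data. Replicates of a group differed by more than sampling noise. Residuals of libraries with the same replicate number correlated at -0.059 to 0.051, and those with other numbers at -0.136 to 0.096. They gave no sign that the numbers pair the libraries, but so few pairs cannot exclude it.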

Additional observations from a re-analysis of the deposited data

Results flagged for a closer look

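CTSG, the cathepsin G gene, moved differently in the 2 arms by the test of the difference itself. The effect of SA over Vehicle was lower than that of sgALAS1 over sgSCR by -0.83 on the log2 scale (SE 0.18, adjusted p = 0.0101, edgeR quasi-likelihood test). The SA libraries had 202 to 239.6 CPM, against 325 to 432 CPM in Vehicle libraries, and the sgALAS1 libraries had 357 to 394 CPM, against 322 to 437 CPM in sgSCR libraries. All 3 SA libraries were below all 3 Vehicle libraries, and the adjusted p was 0.0531 without sgSCR replicate 1. The arms differ in agent and days, and the labels do not say whether the SA and Vehicle cells carried a guide or received doxycycline, so these cannot be told apart.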

How the results depend on the processing

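For the members, the calls in SA against Vehicle, in sgALAS1 against sgSCR and in the difference of these effects were kept under each alternative that used all libraries of the groups compared: other normalisations, no filter on low counts, DESeq2, the replicate block, leaving the members or the mitochondrial and most abundant unnamed transcripts out of the library size, and fitting only the groups compared (not run for the difference). Whether the replicate numbers pair the libraries is not settled. With the replicate block the members called were 2 for SA, 3 for sgALAS1, 1 for the difference and 0 for sgSCR against Vehicle. In these fits 1704, 1796, 266 and 227 genes were called, against 1531, 1622, 164 and 198 without the block. With no filter, 277 genes were called for the difference and 2 members for sgSCR against Vehicle, and DESeq2 called 300 genes for sgSCR against Vehicle. Against the other control group, chosen after seeing the data, 4 members were called for SA, beside 13.6% of all tested genes, and 5 for sgALAS1, beside 14.9%. There ELANE (-0.059) and MS4A3 (0.13) for SA against sgSCR, and CTSG (-0.050) and SERPINB1 (0.031) for sgALAS1 against Vehicle, turned sign. Leaving out 1 library at a time gave 954 to 1595 genes called for SA, 109 to 340 for the difference and 84 to 276 for sgSCR against Vehicle, and 1 to 3 members for sgALAS1, 0 to 1 for the difference and 0 to 2 for sgSCR against Vehicle. The signs of members near 0 turned in these fits: for SA AZU1 (-0.20 to 0.19), for sgALAS1 ELANE (-0.0079 to 0.094), AZU1 (-0.026 to 0.32), CTSG (-0.045 to 0.20) and SERPINB1 (-0.19 to 0.070), for the difference AZU1 (-0.36 to 0.036), CST7 (-0.019 to 0.46) and SRGN (-0.12 to 0.039), and for sgSCR against Vehicle MPO (-0.28 to 0.23), CST7 (-0.091 to 0.30) and SERPINB1 (-0.033 to 0.22). The cause was not tested. MPO, with 8 to 36 reads per library, is limited by depth.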

Other observations

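Across the 12 libraries, the 5 of 9450 genes whose log2(CPM + 0.5) was most like that of MPO were P2RX1 (Pearson r = 0.888), CAMTA1 (0.867), LINC02971 (0.854), AFF3 (0.853) and HDHD2 (0.836). For the sum of AZU1, PRTN3 and ELANE they were SLC29A1 (0.922), POLR1H (0.919), GM2A (0.918), LSMEM2 (0.910) and RPUSD3 (0.904). These values describe libraries that share groups, and the genes are the highest of many.

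Most listed genes of other lineages had too few reads to be tested. Among those tested, RNASE3 had group means of 46.7 to 61.5 CPM. Of 12 lymphoid markers 3 were tested, and they went different ways. NKG7, a protein of cytotoxic granules, had 0.154 to 0.727 CPM in sgALAS1 and 8.27 to 8.52 CPM in sgSCR libraries, and 4.47 to 7.36 CPM in SA and 8.28 to 8.80 CPM in Vehicle libraries. CD3D, a T cell receptor subunit, had 0 reads in all sgALAS1 libraries and 4.18 to 5.62 CPM in sgSCR libraries, and 0.583 to 1.13 CPM in SA and 12.2 to 15.4 CPM in Vehicle libraries. GZMA, encoding granzyme A, was higher in all sgALAS1 libraries, at 24.2 to 30.3 CPM against 13.7 to 21.7 CPM in sgSCR libraries, and had 19.8 to 29.2 CPM in SA and 13.4 to 21.9 CPM in Vehicle libraries. NKG7 was called lower in sgALAS1 cells and CD3D in both arms, and GZMA was not called (log2 fold change 0.58, adjusted p = 0.0834 in sgALAS1 cells, and 0.38, adjusted p = 0.295 in SA cells, edgeR). The summed CPM of the lymphoid list was 26.6 to 39.2 in SA and 35.4 to 43.7 in Vehicle libraries, and 24.6 to 33.6 in sgALAS1 and 27.0 to 35.9 in sgSCR libraries.

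GATA2, a factor of mast cells, basophils and early progenitors, had 6.41 to 8.36 CPM in SA and 11.9 to 16.6 CPM in Vehicle libraries (log2 fold change -1.06, adjusted p = 0.0114 in edgeR, lost without Vehicle replicate 2 or SA replicate 1 or 3). It had 6.72 to 10.6 CPM in sgALAS1 and 8.76 to 15.4 CPM in sgSCR libraries and was not called there. PRG2, RNASE3, EPOR and GP1BA were not called in either arm, nor was COL1A2. Between the controls COL1A2 was called lower, at 0.199 to 2.09 CPM in sgSCR and 4.57 to 7.26 CPM in Vehicle libraries (log2 fold change -2.12). When 1 library was left out, that call was kept only without sgSCR replicate 2. In sgALAS1 against sgSCR COL1A2 was at 1.52, with 2.88 to 5.45 CPM in sgALAS1 libraries. EPOR was called higher in sgALAS1 than in Vehicle cells (1.04, adjusted p = 0.0229 in edgeR). The eosinophil, basophil and mast cell list, which holds RNASE3, PRG2 and GATA2, summed to 65.1 to 75.8 CPM in SA and 57.9 to 79.2 CPM in Vehicle libraries, and 61.6 to 76.3 CPM in sgALAS1 and 54.6 to 66.7 CPM in sgSCR libraries. Erythroid and megakaryocyte genes summed to at most 16.7 CPM and stromal and epithelial genes to at most 9.91 CPM in any library. The part of these genes in the values of the primary granule members was not tested.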
